A study of Mus musculus with 5 samples.

Results

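Cycling macrophages were the cells of SSM2 mammary tumours that carried a macrophage signature together with transcripts of the proliferation genes Mki67 and Top2a. They numbered 220 of 1989 gated macrophages and of 24022 barcodes in all. A barcode was gated as a macrophage when it had at least 1500 transcripts, counted as unique molecular identifiers (UMIs), at least 1 Csf1r UMI and at least 10 UMIs of C1qa, C1qb and C1qc together. It also had no Cd3e or Cd79a UMI, and less than 0.3% of its UMIs came from Krt8, Krt18, Krt19 and Epcam. A gated macrophage was called cycling with at least 3 UMIs of Mki67 and Top2a together, and non-cycling with none. These 2 genes and the gate genes chose the cells, so their levels are given as a description with no test. Of the other gated macrophages, 1349 were non-cycling and 420 had 1 or 2 UMIs of the pair.

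The SSM2 line, which derives from a mouse mammary tumour, was grown as tumours in mice of 10 to 12 weeks, each given 100000 cells in a mammary gland on the left side. Every mouse carried a 60 mg, 60 day pellet of either placebo or progesterone (P4), and tumours were taken between day 28 and day 62. There were 5 droplet libraries in 2 batches named by the labels: Placebo 1 and Progesterone 1 in batch 1 and Placebo 2, Progesterone 2 and Progesterone 3 in batch 2. All tumours came from 1 cell line, and nothing in the labels says that the libraries were separate animals. Progesterone 2 and 3 carry deposited names that differ by an L and an R. Every p-value below therefore measures only the spread between these libraries.

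Libraries held 23409215 to 204786073 UMIs over 2241 to 5857 barcodes. Cycling macrophages were found in 4 of the 5. They were 11 of 159 gated macrophages in Progesterone 1, 37 of 449 in Placebo 2 and 63 of 519 in Progesterone 3, and the remaining members lay among the 854 of Progesterone 2. Placebo 1 had 8 gated macrophages and none was cycling, which allows a share of up to 37.5%, so it entered no comparison of genes. Pairs of libraries shared 2 to 12 barcodes, and no cycling macrophage had a barcode found among those of another library. Barcodes called as doublets were 3 of the 220 cells, or 1.36%, and 7 of the 1349 non-cycling cells. Median depth was 20718 UMIs in cycling and 13123 UMIs in non-cycling macrophages.

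Tissue macrophages arise from blood monocytes or from cells seeded before birth, and those of many tissues can divide in place under signals such as CSF1, the ligand of the receptor encoded by Csf1r. C1qa, C1qb and C1qc encode the subunits of the complement protein C1q, which mature macrophages make in large amounts. Mki67 encodes a protein that coats mitotic chromosomes, and Top2a encodes the topoisomerase that untangles replicated DNA. Both transcripts build up through S phase and G2 and are lost after division or on exit from the cycle. Genes of late G1 and S phase carry promoter sites bound by E2F factors. Many genes of G2 and mitosis instead carry a cell cycle homology region (CHR), often close to CCAAT boxes bound by NF-Y.

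The promoters of 6 cycle genes are shown because these 2 waves of transcripts run through the results. Each line holds the 120 bases before the transcript start, 5′ to 3′, from RefSeq on the GRCm38 build. Capitals mark the CHR letters TTTGAA, the CCAAT box and the E2F letters, which were TTTCCCGC or TTTGGCGC or TTTCGCGC. Each was searched on both strands, and matches may overlap.
Mki67, chr7:135716380-135716499, minus strand: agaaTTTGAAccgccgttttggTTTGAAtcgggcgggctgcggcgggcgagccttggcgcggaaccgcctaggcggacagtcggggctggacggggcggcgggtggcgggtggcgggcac
Top2a, chr11:99024190-99024309, minus strand: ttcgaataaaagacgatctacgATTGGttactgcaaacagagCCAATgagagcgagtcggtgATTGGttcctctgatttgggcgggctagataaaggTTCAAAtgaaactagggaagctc
Cdk1, chr10:69352913-69353032, minus strand: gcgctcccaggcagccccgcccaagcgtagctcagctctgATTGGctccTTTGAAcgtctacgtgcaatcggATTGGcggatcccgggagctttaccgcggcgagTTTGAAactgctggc
Cdc20, chr4:118437344-118437463, minus strand: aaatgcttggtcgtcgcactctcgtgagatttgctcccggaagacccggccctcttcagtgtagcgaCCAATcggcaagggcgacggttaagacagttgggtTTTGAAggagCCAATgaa
Mcm6, chr1:128359706-128359825, minus strand: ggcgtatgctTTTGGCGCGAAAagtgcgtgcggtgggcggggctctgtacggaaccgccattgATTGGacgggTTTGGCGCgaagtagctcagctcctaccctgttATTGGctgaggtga
Hells, chr19:38930870-38930989, plus strand: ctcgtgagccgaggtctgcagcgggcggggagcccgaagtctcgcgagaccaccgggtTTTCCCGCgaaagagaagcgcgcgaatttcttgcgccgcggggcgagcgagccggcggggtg

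Mki67, Top2a, Cdk1 and Cdc20 belong to the G2 and mitosis wave, and Mcm6 and Hells act in DNA replication and its chromatin. Over the 300 bases from 250 before to 50 after the start, 32 of 47 G2 and mitosis genes with a RefSeq entry held the CHR letters, or 68.1%. The same letters stood in 20.2% of all 27025 genes with an entry and in 14.7% of 34 G1/S and S phase genes. The E2F letters had the opposite pattern, at 38.2% of the G1/S and S phase genes, 6.38% of the G2 and mitosis genes and 2.12% of all genes. CCAAT was frequent in both lists, at 78.7% and 67.6%, against 41.1% of all genes. A match is a description of the letters and shows no binding.

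The label of a cycling macrophage was checked against cycle transcripts other than Mki67 and Top2a. The measure was the summed UMIs of 48 G1/S and S phase genes and 56 G2 and mitosis genes, set against the 99th percentile of the non-cycling cells of the same library. Above that level were 126 of the 220 cycling macrophages, or 57.3%. The share depended on how many Mki67 and Top2a UMIs a cell had: all 80 cells with 12 or more, 35 of 59 cells with 5 to 11 (59.3%) and 11 of 81 cells with 3 or 4 (13.6%). Just outside the rule, 22 of 420 cells with 1 or 2 UMIs were above it. By this measure the name held for every cell with 12 or more UMIs, while most cells just inside the rule carried few other cycle transcripts. The measure does not show that a barcode held a single cell. Doublet calls were 3 of the 80 cells with 12 or more UMIs (3.75%), and 0 with 3 or 4 and with 5 to 11.

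Median G2 and mitosis transcripts per 10000 UMIs of a cell were 6.92 in non-cycling cells, 8.08 at 1 or 2 UMIs, 8.38 at 3 or 4, 16.9 at 5 to 11 and 78.1 at 12 or more. Medians of the G1/S and S phase genes over the same steps were 5.63, 5.91, 6.20, 7.85 and 19.4. The rise was thus concentrated in the cells with most Mki67 and Top2a. Those cells were 19 in Placebo 2, 41 in Progesterone 2 and 20 in Progesterone 3, and 0 of the 159 gated macrophages of Progesterone 1 reached 12 UMIs. Among the cells with 12 or more, the median of the G2 and mitosis genes was 77.0, 79.1 and 81.1 per 10000 in Placebo 2, Progesterone 2 and Progesterone 3. The median of the G1/S and S phase genes was 42.9, 18.8 and 16.2 in the same order, highest in the placebo library.

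**Figure D1:**
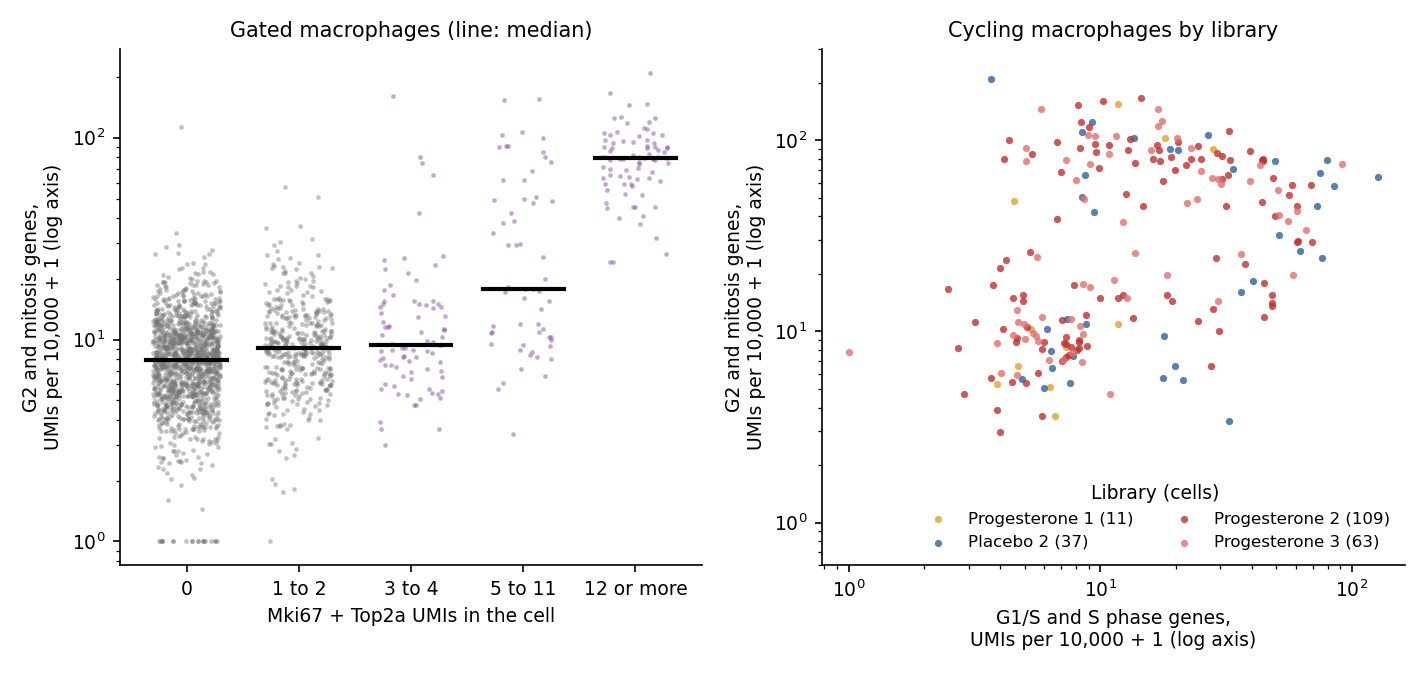
Left: UMIs of the G2 and mitosis genes per 10000 UMIs of a cell, plus 1, on a log axis, for gated macrophages of the 4 libraries with cycling cells, grouped by their Mki67 and Top2a UMIs, with medians as lines. Right: the same measure against that of the G1/S and S phase genes in each of the 220 cycling macrophages, colored by library. Cells with 12 or more UMIs lie above the other groups, and cycling macrophages spread between a group low in both measures and groups high in one or both.

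The 2 proliferation genes did not contribute alike. Cycling macrophages held 1375 Mki67 and 1181 Top2a UMIs, and 67 of them had no Top2a UMI while 6 had no Mki67 UMI. Mki67 made up 80.1% of the pair's UMIs in cells with 3 or 4, 65.6% with 5 to 11 and 47.4% with 12 or more. In tumour barcodes, those with at least 1% of UMIs from the 4 epithelial genes and no Csf1r UMI, Mki67 made up 31.2% of the pair's UMIs. Levels are given as CPM, the UMIs of a gene per 1000000 UMIs summed over a group. Summed over the cycling cells of a library, Mki67 stood at 108, 318, 278 and 327 CPM in Progesterone 1, Placebo 2, Progesterone 2 and Progesterone 3, the order used for 4 values from here on. Top2a stood at 97.7, 363, 230 and 228 CPM, lowest again in Progesterone 1.

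The macrophage gate genes were well above their limits in most cells. The median cell held 137, 135, 191 and 145 UMIs of the C1q genes, and 9 of the 220 cells, 1, 2, 2 and 4 by library, had under 20. C1qa was at 1606, 2712, 3688 and 3598 CPM in cycling and at 1940, 3378, 4267 and 4192 CPM in non-cycling macrophages. Csf1r was at 427, 254, 395 and 350 CPM in cycling cells. All 12 genes of a macrophage identity list outside the gate, such as Adgre1, Cd68 and Fcgr1, were detected in the cycling cells of every library, at summed levels of 10905 to 15453 CPM against 13812 to 19044 CPM in non-cycling cells.

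Markers of most other cells were low in comparison. Tumour epithelial genes outside the gate, 12 in all, summed to 84.7 to 388 CPM in cycling and 83.9 to 396 CPM in non-cycling macrophages. Krt14 and Sox10 were at 0 in both states of each library with cycling cells. Other members were detected. Wfdc2 was at 9.77, 85.8, 111 and 129 CPM in cycling and at 10.7, 103, 190 and 116 CPM in non-cycling cells. Cdh1 was at 16.3, 53.5, 64.6 and 59.6 CPM against 27.0, 50.7, 40.3 and 31.7 CPM. T and NK cell genes summed to 79.2 to 199 CPM against 68.6 to 132 CPM, and neutrophil genes to 24.5 to 130 CPM against 48.5 to 145 CPM. B and plasma cell genes reached at most 7.72 CPM in cycling cells, and red cell genes were at 0. Fibroblast genes stood at 589 CPM in the cycling cells of Progesterone 2, where 1 cell held 96.8% of the 1449 UMIs, and at 19.4 CPM without that cell. In non-cycling cells they stood at 735 CPM in Placebo 2, or 479 CPM without the highest cell, and at 288 CPM in Progesterone 3, where 1 cell held 93.5% of the UMIs. In the cycling cells of Placebo 2 they stood at 52.4 CPM. The part these levels have in the results below was not tested.

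The share of macrophages that were cycling was compared between progesterone and placebo. Cycling cells were 8.24% of gated macrophages in Placebo 2 (exact Clopper-Pearson 95% interval 5.87 to 11.2%). Among the progesterone libraries they were 6.92% in the first (3.50 to 12.0%), 12.8% in the second (10.6 to 15.2%) and 12.1% in the third (9.46 to 15.3%). Placebo 2 thus lay inside the range of the progesterone libraries, and these intervals cover counting error only. The mean was 10.6% ± 3.21 (SD, n = 3) with progesterone, a difference of 2.37 percentage points from the single placebo library (exact two-sided permutation test over 4 arrangements, p = 1, where the smallest possible is 0.25). Within batch 2 the difference was 4.21 points (exact permutation p = 0.333, the smallest that 3 arrangements allow).

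The sign of that difference depended on Progesterone 1 with a limit of 12 UMIs, and with a limit of 3 UMIs after thinning. With at least 12 UMIs, a limit chosen after seeing the data, shares were 0, 4.23, 4.80 and 3.85%, and progesterone minus placebo was -1.35 points over all libraries and 0.0956 points within batch 2. The count of 0 of 159 cells in Progesterone 1 has an exact 95% upper limit of 2.29%. Thinned to 5000 UMIs per cell, with 3 or more, a limit also chosen after seeing the data, shares were 2.26, 4.21, 4.54 and 5.79%. The difference was then -0.011 points over all libraries and 0.959 within batch 2. With 1 or more after thinning, shares were 9.77, 14.3, 21.6 and 20.6%, and the difference was 3.06 points over all libraries. With at least 5 UMIs and no thinning the difference was 0.702 points over all libraries. A share of cycling macrophages that differs with progesterone was therefore not detectable with these libraries.

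Other cells of the same libraries were held to the same limit of 3 UMIs, at other depths. Tumour barcodes were cycling at 14.9, 16, 30.9 and 24.1%, above macrophages in each library. Their median depth was 4806, 39894.5, 51406 and 45083.5 UMIs, against 20814, 14926, 14068 and 12603 UMIs in gated macrophages, so they were deeper in batch 2 and shallower in Progesterone 1. T cell barcodes reached the limit in 7.91, 4.60, 4.35 and 8.33% of cells, and in 45 of 3147 (1.43%) in Placebo 1. Neutrophils do not divide once mature. Barcodes with at least 50 UMIs of S100a8 and S100a9 and no Csf1r UMI reached the limit in 5 of 60 (8.33%) in Progesterone 1, at a median of 4935.5 UMIs, and in 2 of 3 in Placebo 1. It was 0 of 10, 0 of 11 and 0 of 1 in Progesterone 2, Progesterone 3 and Placebo 2. The 6.92% of macrophages in Progesterone 1 was thus not above the neutrophil share of that library. Among its 11 cycling macrophages, 4 were above the 99th percentile of other cycle transcripts, all of them among the 6 cells with 5 to 11 UMIs. The source of the UMIs in neutrophil barcodes was not tested, and results without Progesterone 1 are given where it moves them.

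**Figure D2:**
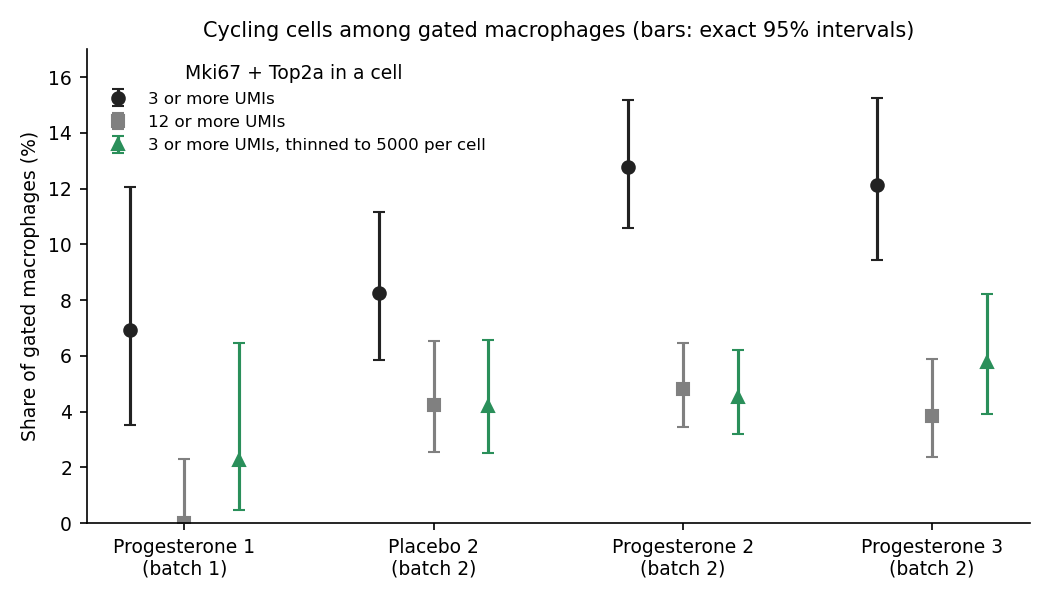
Share of gated macrophages called cycling, in %, in the 4 libraries with cycling cells, under 3 limits on Mki67 and Top2a UMIs, with exact 95% Clopper-Pearson intervals as bars. Progesterone 2 and Progesterone 3 sit at 12.8% and 12.1% with 3 or more UMIs, and 0% and 2.26% are the shares of Progesterone 1 with 12 or more UMIs and after thinning.

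Cycling cells were spread over macrophages of different kinds. Ccr2 encodes the chemokine receptor of blood monocytes that enter tissue. Gated macrophages with a Ccr2 UMI after thinning were cycling, by the unthinned rule, in 11.1, 13.4, 17.6 and 20.2% of cells, and those without one in 6.82, 5.54, 12.2 and 10.8%, so the share was higher with Ccr2 in 4 of 4 libraries. The intervals overlapped in each library, from 8.47 to 19.7% with and 3.13 to 8.97% without Ccr2 in Placebo 2. Mrc1, the mannose receptor gene of resident macrophages, showed no such order: 8.33, 9.56, 12.8 and 12.6% with a UMI against 8.24, 5.93, 13.4 and 12.2% without. Trem2, a lipid receptor gene, split the libraries, at 9.30, 5.49, 12.3 and 12.9% with a UMI and 6.38, 12.7, 17.4 and 10.2% without. No test was made of these splits.

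Gene expression was then compared between cycling and non-cycling macrophages of the same library, over counts summed per library and state. The question was which genes beyond the cycle differ in the cells that express Mki67 and Top2a. With edgeR's quasi-likelihood test and the library as a block, 460 of 9693 genes outside the gate passed a Benjamini-Hochberg adjusted p of 0.05, or 4.75%. Higher in cycling cells were 335 genes (3.46%) and lower were 125 (1.29%), and the median log2 difference of all tested genes was -0.01. Outside the cycle, chromatin and nucleotide lists, 364 of 9573 genes passed (3.8%), 239 higher (2.5%) and 125 lower (1.31%).

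Genes of the cycle itself vary along the axis that chose the cells, so their differences are described without a test. They were largest in the G2 and mitosis wave. Of the 56 genes of that list, 48 passed the filter on low counts, 47 were called higher and the median log2 difference was 3.84. Cenpf, a kinetochore protein gene, was at 55.4, 110, 69.9 and 78.8 CPM in cycling and 0.856, 0.795, 1.22 and 0.474 CPM in non-cycling cells. Birc5, which encodes the mitotic protein survivin, was at 61.9, 321, 218 and 194 CPM against 1.71, 6.96, 7.19 and 4.26 CPM. The filter kept genes through their level in cycling cells, so these counts say nothing about the list beyond its description.

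Of the 48 G1/S and S phase genes, 32 passed the filter, 24 were called higher and the median was 1.73. Tyms, the thymidylate synthase gene, was at 32.6, 82.5, 86.5 and 95.5 CPM in cycling cells and at 1.28 to 7.58 CPM in non-cycling cells. Uhrf1, which guides DNA methylation after replication, was at 0 CPM in the 11 cells of Progesterone 1 and at 82.5, 51.2 and 36.8 CPM in the others, and Mcm5, a subunit of the replicative helicase, was at 3.26, 81.4, 47.9 and 36.8 CPM. Progesterone 1 was thus lowest for all 3 genes. Among chromatin and histone genes 21 of 25 were called higher, led by the linker histone gene Hist1h1b at 16.3, 231, 184 and 167 CPM against 1.66 to 3.43 CPM. Among nucleotide synthesis genes it was 8 of 19, Rrm1 and Dut included.

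Genes of cycle control lie on the same axis and are described likewise, with no p. Of 10 genes of cyclins D, their kinases and Myc, 2 were called higher: E2f1, an activator of S phase genes, with a log2 difference of 1.21 ± 0.20 (SE), and Cdk4 with 0.60 ± 0.15. Among inhibitor and quiescence genes 3 of 15 were called higher. Cdkn2c, which encodes the Cdk4 and Cdk6 inhibitor p18, was at 19.5, 55.7, 57.3 and 50.8 CPM in cycling and at 4.71, 8.15, 6.10 and 6.63 CPM in non-cycling cells, a log2 difference of 2.72 ± 0.21. These ranges did not overlap. Rbl1, the gene of the pocket protein p107, differed by 1.69 ± 0.32 and Cdkn2d, the p19 inhibitor gene, by 1.11 ± 0.18. Of these 5 genes, Cdkn2c alone was called against comparison cells matched on depth, described below, with a log2 difference of 2.32.

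**Figure D3:**
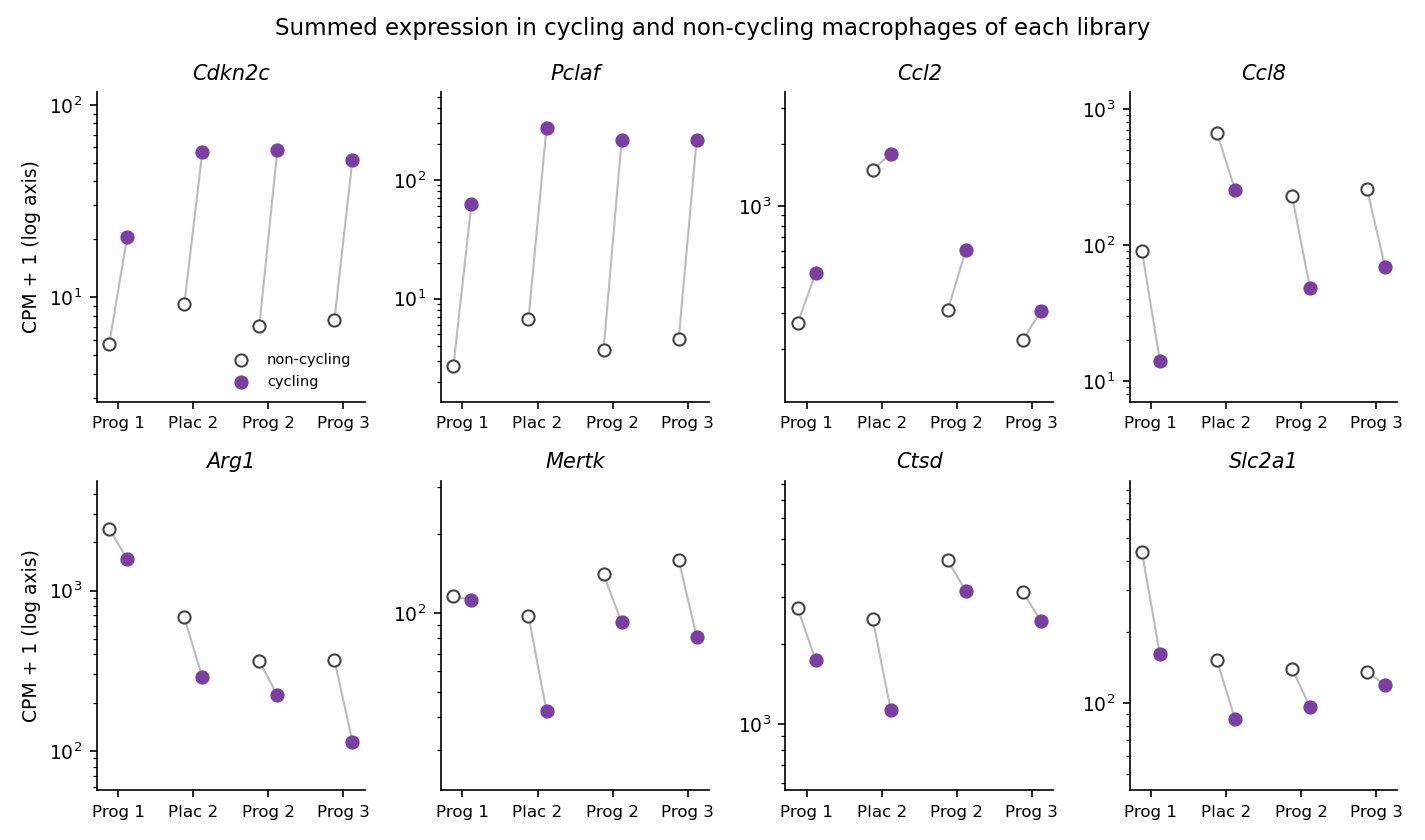
Summed expression (CPM + 1, log axis) of 8 genes in non-cycling (open) and cycling (filled) macrophages of each progesterone (Prog) and placebo (Plac) library, joined by lines. Cdkn2c and Pclaf are far higher in cycling cells, Ccl2 moderately higher, and Ccl8, Arg1, Mertk, Ctsd and Slc2a1 lower in cycling cells of all 4 libraries.

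The largest rises outside the fixed lists were also of genes that act in replication and division. Pclaf, which encodes a PCNA-binding factor, was at 61.9, 274, 216 and 218 CPM in cycling and 1.71, 5.76, 2.71 and 3.55 CPM in non-cycling cells, a log2 difference of 5.55. Hist1h3c, of the replication-dependent histone family whose near-identical copies may share reads, differed by 5.30. Spc24 of the kinetochore differed by 4.31, the spindle motor gene Kif15 by 4.12, the securin gene Pttg1 by 3.14, Incenp of the chromosomal passenger complex by 2.85 and Ncapg2 of condensin II by 2.80. All 7 are genes of the cycle, so no p is given for them.

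Genes of macrophage identity were lower or did not pass. Of 12 identity genes 0 rose and 2 fell, with a median log2 difference of -0.31. Mertk, a receptor for engulfing dead cells, was at 111, 41.2 and 91.0 CPM in cycling macrophages of Progesterone 1, Placebo 2 and Progesterone 2, and at 79.7 CPM in Progesterone 3. In non-cycling macrophages it was at 115, 96.2, 139 and 158 CPM. It was lower within every library, by little in Progesterone 1, and the groups overlapped across libraries. The difference was -0.78 ± 0.18 log2 (SE, adjusted p = 0.0402). Outside the identity list, the myeloid transcription factor gene Cebpa fell by 0.59 ± 0.15 (adjusted p = 0.0471).

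Lipid-associated genes had a common sign without many calls. All 19 had lower fitted values in cycling cells, with a median of -0.43, and 4 fell. Ctsd, the gene of the lysosomal protease cathepsin D, was at 1737, 1126, 3163 and 2442 CPM in cycling and at 2731, 2485, 4135 and 3141 CPM in non-cycling cells, lower within each library (log2 -0.67 ± 0.15, adjusted p = 0.033). Ctsb, of cathepsin B, fell by 0.50, the tetraspanin gene Cd63 by 0.68 and Fabp4, a fatty acid carrier, by 1.57 (adjusted p = 0.0359, 0.0459 and 0.0107). Resident and Mrc1 genes had a median of -0.44, and 2 of 14 fell, Folr2, a folate receptor gene, by 0.65 and the selenium carrier gene Selenop by 0.59 (adjusted p = 0.0411 and 0.0177). None of 11 monocyte genes and none of 9 MHC class II genes passed. Cd74, the invariant chain gene, was at 8641, 8831, 7997 and 13469 CPM in cycling and 11013, 10044, 10159 and 14765 CPM in non-cycling cells (log2 -0.29 ± 0.11, adjusted p = 0.186).

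Chemokine genes went both ways. Ccl8, a ligand of the receptors CCR2 and CCR8 among others, was at 13, 254, 47.1 and 67.4 CPM in cycling and at 89.9, 667, 228 and 255 CPM in non-cycling cells. It was lower within every library, by 1.97 ± 0.17 log2 (adjusted p = 6.85e-05), though 1 cell held 61.4% of its UMIs in Placebo 2 and adjusted p was 0.118 with at least 5 Mki67 and Top2a UMIs. Ccl2, which draws monocytes through CCR2, was higher within every library, at 469, 1797, 605 and 306 CPM against 266, 1500, 309 and 220 CPM. The difference of 0.58 ± 0.15 log2 lay just past the threshold (adjusted p = 0.0497). The other 12 of 14 chemokine genes did not pass.

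Suppressive genes fell in 2 of 12, and glycolysis and hypoxia genes in 4 of 18. Arg1, which encodes the arginine-degrading enzyme arginase 1, was at 1570, 288, 221 and 113 CPM in cycling and at 2426, 679, 361 and 368 CPM in non-cycling cells. Progesterone 1 was highest in both states, and the difference within libraries was -1.09 ± 0.18 log2 (adjusted p = 0.00626). Vsir, the gene of the checkpoint protein VISTA, fell by 0.55 ± 0.12 (adjusted p = 0.0308). Slc2a1, the glucose transporter gene, was at 160, 84.7, 95.5 and 118 CPM against 436, 151, 139 and 135 CPM (log2 -0.76 ± 0.18, adjusted p = 0.0396). Bnip3, a hypoxia-induced mitophagy gene, fell by 0.70 and Vegfa, of vascular endothelial growth factor, by 0.67 (adjusted p = 0.0171 and 0.0219). Adm, the adrenomedullin gene, fell by 2.13 with 1, 1, 2 and 5 UMIs in cycling cells, so its fitted value depends on the prior count.

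Other lists held few calls. Of 20 interferon-stimulated genes 2 fell: Ifit3, at 0, 0, 2.44 and 0.876 CPM against 41.1, 16.5, 9.76 and 11.4 CPM, by 2.86 ± 0.47 log2 (adjusted p = 0.00553), and Ifit1 by 1.84 ± 0.31 (adjusted p = 0.00624). Both encode proteins that bind foreign RNA. The immunoproteasome gene Psmb9 rose by 0.56 (adjusted p = 0.045). Of 18 oxidative phosphorylation genes, 17 had a positive sign with a median of 0.18, and cytochrome c, Cycs, rose by 0.54 (adjusted p = 0.0284). Of 14 steroid receptor target genes, Ddit4, an inhibitor of mTOR signaling, fell by 0.96 (adjusted p = 0.0284). The growth factor gene Igf1 fell by 0.55 (adjusted p = 0.0409). None of 16 cholesterol synthesis genes and none of 17 dissociation stress genes passed.

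The largest falls outside the lists were modest beside the rises. Hal, the histidine ammonia-lyase gene, was at 29.3, 120, 79.2 and 67.4 CPM in cycling and 182, 380, 117 and 158 CPM in non-cycling cells (log2 -1.38 ± 0.24, adjusted p = 0.0125). Mmp19, a matrix metalloproteinase gene, fell by 1.14 and Pfkfb3, which drives glycolysis through fructose 2,6-bisphosphate, by 1.02 (adjusted p = 0.00493 and 0.00328). Ctla2b fell by 1.03, Crebrf by 1.02 and Hgf, of hepatocyte growth factor, by 0.98 (adjusted p = 0.02, 0.0293 and 0.0107).

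The falls, and the named rises outside the cycle, depended on the comparison cells and on single libraries. Cycling macrophages were deeper than non-cycling ones in each library, with medians of 23254, 24077, 21585 and 16442 UMIs against 19103, 14115.5, 12996.5 and 11971. Against an equal number of non-cycling cells matched on depth, 157 genes passed, 136 higher and 21 lower. This comparison changes depth and also uses fewer non-cycling cells, 11, 37 and 63 outside Progesterone 2, so the effects of depth and number cannot be told apart in it. With every cell thinned to 5000 UMIs and all cells kept that reached it, 82 of 6011 genes were lower, and 18 of 22 lower genes of the rule for named genes kept their call. With matched cells 4 of the 22 such genes that could be measured kept their call: Arg1 (log2 -1.64, adjusted p = 0.000107), Hal (-1.24), Crebrf (-0.96) and Vegfa (-0.66). Ccl8 was then at -0.87 with adjusted p = 0.755 and Ccl2 at 0.22 with adjusted p = 0.718. Without Progesterone 3 the genes called lower numbered 9 in place of 125, and 22 of 26 under that rule lost their call, Arg1 among them (log2 -0.90, adjusted p = 0.0776). It was 34 genes without Placebo 2 and 36 without Progesterone 2, while 266 of 10448 (2.55%) were called lower without Progesterone 1, with 8 of the 12 identity genes among them. Ccl2, Cd63, Cebpa, Ctsd and Adm lost their calls without Progesterone 1. Psmb9 and Cycs, which had risen, lost theirs with matched cells and without the library as a block. They also lost them without Placebo 2, without Progesterone 2 and without Progesterone 3. After thinning Psmb9 was not called either.

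Among cells with 12 or more Mki67 and Top2a UMIs, a limit chosen after seeing the data, calls were more numerous. Against non-cycling cells, 1231 of 10189 genes passed (12.1%), 714 higher (7.01%) and 517 lower (5.07%). Of the 12 identity genes 11 were lower with a median of -0.61, and of the 19 lipid-associated genes 11 were lower with a median of -0.78. Ccl8 differed by -3.62 and Arg1 by -1.41, both past the threshold. Ccl2 was at 0.63 with adjusted p = 0.0614.

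Progesterone was compared with placebo within cycling macrophages. Batch was a block and Progesterone 1 was alone in batch 1, so this contrast set Progesterone 2 and 3 against Placebo 2. The only residual degree of freedom was the spread between those 2 progesterone libraries, which stood in for that of placebo. By edgeR's test the calls were 473 of 9068 genes (5.22%). With progesterone 247 genes were higher (2.72%) and 226 lower (2.49%), and the median log2 difference was 0.02. Resident and monocyte genes were higher in the placebo library, and Spp1 and Apoe in the progesterone libraries. DESeq2 called 64 of the same genes tested, and without the block 1 gene passed. Of the genes of the rule for named genes with a DESeq2 adjusted p, 8 of 25 higher and 11 of 22 lower kept their call. Lyve1, Cx3cr1, Ccl8, Maf, Cebpa, Ccnd1, Cks2, Hmgb2 and Stard13, given below, were among those that DESeq2 did not call.

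Resident and Mrc1 macrophage genes were lower with progesterone in 10 of 15 tested members, 0 were higher, and the list's median was -2.16. Values here follow the order Placebo 2, Progesterone 2 and Progesterone 3, with Progesterone 1 added where stated. Retnla, a secreted protein gene of alternatively activated macrophages, was at 5976, 403 and 293 CPM, and at 19.5 CPM in Progesterone 1. A single cell held 94.3% of the Retnla UMIs of Progesterone 3, and the placebo library was far above the 3 others, and the log2 difference was -3.99 ± 0.19 (SE, adjusted p = 9.35e-06), or -4.14 with thinned cells (adjusted p = 0.139). Cd163, the scavenger receptor gene for haemoglobin and haptoglobin, was at 242, 6.91 and 5.26 CPM (log2 -4.84 ± 0.27, adjusted p = 9.35e-06), and at 6.52 CPM in Progesterone 1. Lyve1, a hyaluronan receptor gene of perivascular macrophages, was at 264, 0 and 2.63 CPM (adjusted p = 0.000686). Ccl24, an eosinophil chemokine gene, was at 89.2, 6.50 and 9.63 CPM (log2 -3.19 ± 0.33, adjusted p = 0.0006).

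Monocyte genes were lower in 5 of 12 and higher in 1, with a median of -0.93. Ccr2 was at 368, 76.0 and 83.2 CPM, and at 186 CPM in Progesterone 1, between the placebo library and the others (log2 -2.09 ± 0.20, adjusted p = 0.000414). S100a4, a calcium-binding protein gene, was at 1319, 398 and 298 CPM (log2 -1.81 ± 0.19, adjusted p = 0.000697). Ly6c2, the marker of classical monocytes, was at 80.3, 0.813 and 2.63 CPM, and 1 cell held 79.2% of its UMIs in Placebo 2. Cx3cr1, the fractalkine receptor gene, went the other way, at 92.5, 335 and 229 CPM (log2 1.70 ± 0.27, adjusted p = 0.00722). In Progesterone 1 it was at 94.5 CPM, near the placebo library.

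**Figure D4:**
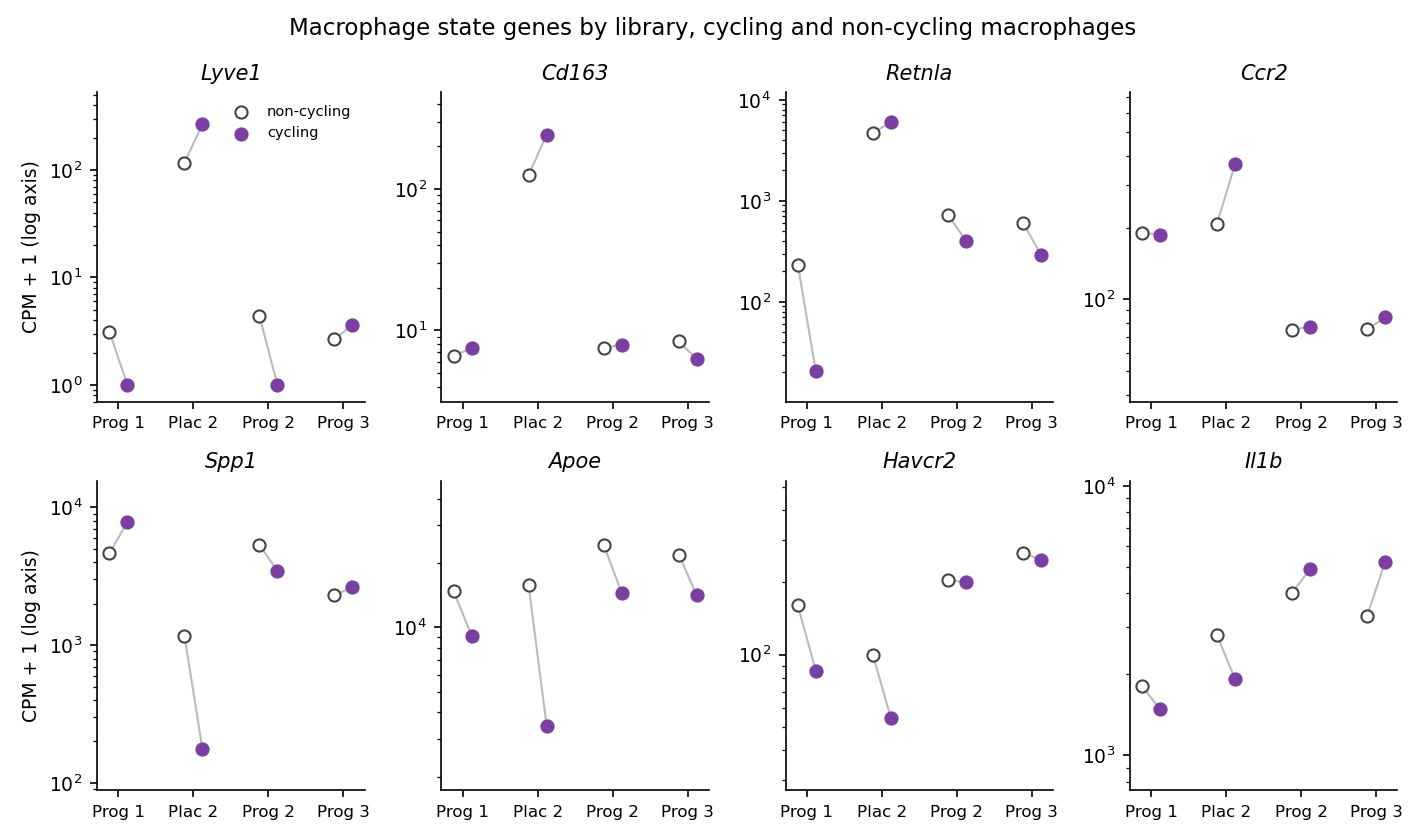
Summed expression (CPM + 1, log axis) of 8 macrophage state genes in non-cycling (open) and cycling (filled) macrophages of each library. Lyve1, Cd163 and Retnla are highest in Placebo 2 in both states, and Spp1 and Apoe lowest in cycling cells of Placebo 2.

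Lipid-associated genes were split: 8 of 19 were higher with progesterone, 2 lower, and the median was 0.61. Spp1, the osteopontin gene, was at 176, 3459 and 2631 CPM and at 7846 CPM in Progesterone 1, so the placebo library, where 1 cell held 45.6% of the UMIs, lay below all 3 others (log2 4.20 ± 0.23, adjusted p = 9.35e-06). Apoe, the apolipoprotein E gene, was at 3459, 14540 and 14148 CPM, with 9159 CPM in Progesterone 1 (log2 2.16 ± 0.16, adjusted p = 8.45e-05). The fatty acid receptor gene Cd36 and the lipase gene Lpl were the 2 lower members, Cd36 at 383, 45.9 and 38.5 CPM (log2 -3.01 ± 0.21, adjusted p = 3.73e-05) and Lpl at 311, 58.5 and 25.4 CPM (log2 -2.66 ± 0.38, adjusted p = 0.0167). The list thus held genes of opposite direction.

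Chemokine genes passed in 9 of 14, 5 higher and 4 lower. The lower ones were Ccl6, at 2170, 204 and 242 CPM (log2 -3.17 ± 0.18, adjusted p = 9.35e-06), Ccl9 by -2.51, Pf4, of platelet factor 4, by -2.61 and Ccl8 by -2.05. The higher ones were Cxcl14, at 98.1, 454 and 306 CPM (log2 2.05 ± 0.28, adjusted p = 0.00371), Ccl5 by 1.65, Ccl3 by 1.19, Cxcl16 by 0.97 and Cxcl2 by 0.85. The list's median was -0.71, opposite in sign to most of its calls. Among cytokine genes Il1b, of interleukin-1 beta, was at 1919, 4911 and 5238 CPM and at 1486 CPM in Progesterone 1, below the placebo library (log2 1.51 ± 0.17, adjusted p = 0.00099). Csf1, the ligand of the receptor that gates these cells, was at 2.23, 29.3 and 20.1 CPM, a level of 2 UMIs in Placebo 2 (log2 2.86 ± 0.53, adjusted p = 0.0133).

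Some genes of macrophage identity and of the suppressive list were higher with progesterone. Of 12 identity genes 5 were higher and 0 lower, namely Ctss (0.97), Tyrobp (0.91), Cd14 (0.80), Mertk (1.13) and Aif1 (0.87). Of 11 suppressive genes 3 were higher: Havcr2, the TIM-3 gene, by 2.13, Cd274, the PD-L1 gene, by 1.30 and Cd86, a costimulatory ligand gene, by 1.09. Havcr2 was at 53.5, 199 and 248 CPM, and at 84.7 CPM in Progesterone 1. Cd86 was at 341, 608 and 747 CPM, and at 300 CPM in Progesterone 1, below the placebo library. Of these 8 genes DESeq2 called Ctss and Havcr2 (adjusted p = 0.0465 and 0.0135), with adjusted p = 0.131 to 0.999 for the others. MHC class II genes had 0 calls of 9, with Cd74 at 8831, 7997 and 13469 CPM.

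Transcription factor genes were called in both directions, 3 higher and 1 lower of 15. Bhlhe41, at 3.34, 25.6 and 38.5 CPM, rose by 2.78 ± 0.54 (adjusted p = 0.0157) and stood at 146 CPM in tumour barcodes, Cebpa by 1.20 and Jun by 0.89. Maf, a transcription factor gene of resident macrophages, was at 229, 66.6 and 30.7 CPM (log2 -2.03 ± 0.36, adjusted p = 0.0302). The stress list was higher in 4 of 17, Hspa1a, Hspa1b, Jun and Atf3 (log2 1.61, 2.07, 0.89 and 0.93). Hspa1a was at 58.0, 161 and 174 CPM, and at 39.1 CPM in Progesterone 1, below the placebo library. Hspa1a and Hspa1b are near-identical copies whose reads may not be told apart. Interferon-stimulated genes had 1 call of 16, Ifi27l2a, which fell by 0.74 (adjusted p = 0.0391). Ifi27l2a was at 551, 321 and 290 CPM, and at 1092 CPM in Progesterone 1, above the placebo library. DESeq2 called neither Ifi27l2a nor any of the 4 stress genes.

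Cycle genes differed between the libraries by less. Of 46 G1/S and S phase genes 4 were lower with progesterone, where 2.49% of all genes were lower. None was higher, and the list's median was -0.51. Pcna, the sliding clamp of replication, was at 420, 238 and 202 CPM (log2 -0.82 ± 0.20, adjusted p = 0.038), and at 121 CPM in Progesterone 1. Ccne2, of cyclin E2, was at 33.4, 8.53 and 10.5 CPM (log2 -1.58 ± 0.37, adjusted p = 0.0365), Rrm2 fell by 1.10 and Usp1 by 1.04. Of 54 G2 and mitosis genes 2 were higher, Cks2 by 1.11 and Hmgb2 by 0.81, where 2.72% of all genes were higher. The median of these 54 was -0.16. In Progesterone 1 Cks2 was at 111 CPM, against 110 CPM in Placebo 2, and Hmgb2 at 560 CPM, below 720 CPM in Placebo 2. Ccnd1, of cyclin D1, was at 163, 54.0 and 43.8 CPM (log2 -1.58 ± 0.23, adjusted p = 0.00422), and Klf4, a factor of quiescent and differentiated cells, fell by 1.17 (adjusted p = 0.00394). DESeq2 called none of the G1/S and S phase genes. Among cells with 12 or more Mki67 and Top2a UMIs, 3 of 44 were lower with a median of -0.68, where 1.66% of all genes were lower.

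Metabolic genes that passed were lower with progesterone. Cholesterol synthesis genes were lower in 5 of 16, with a median of -0.71. Idi1 was at 65.8, 14.6 and 19.3 CPM (log2 -1.80 ± 0.32, adjusted p = 0.0105), Cyp51 fell by 1.73 and Fdps by 1.44, all enzymes of the pathway. Glycolysis and hypoxia genes had 1 call of 17, Pgk1, which fell by 0.93 (adjusted p = 0.0165), and oxidative phosphorylation genes had 0 of 18. Pgk1 was at 516, 251 and 251 CPM, and at 629 CPM in Progesterone 1, above the placebo library. Steroid receptor targets had 1 call each way of 14. Sgk1, a kinase gene induced by corticosteroids, was at 175, 408 and 391 CPM, and at 557 CPM in Progesterone 1 (log2 1.29 ± 0.21, adjusted p = 0.00625). The metallothionein gene Mt2 was at 274, 89.4 and 125 CPM (log2 -1.26 ± 0.24, adjusted p = 0.0157). In Progesterone 1 Mt2 was at 336 CPM, above the placebo library. DESeq2 did not call Pgk1, Sgk1 or Mt2.

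**Figure D5:**
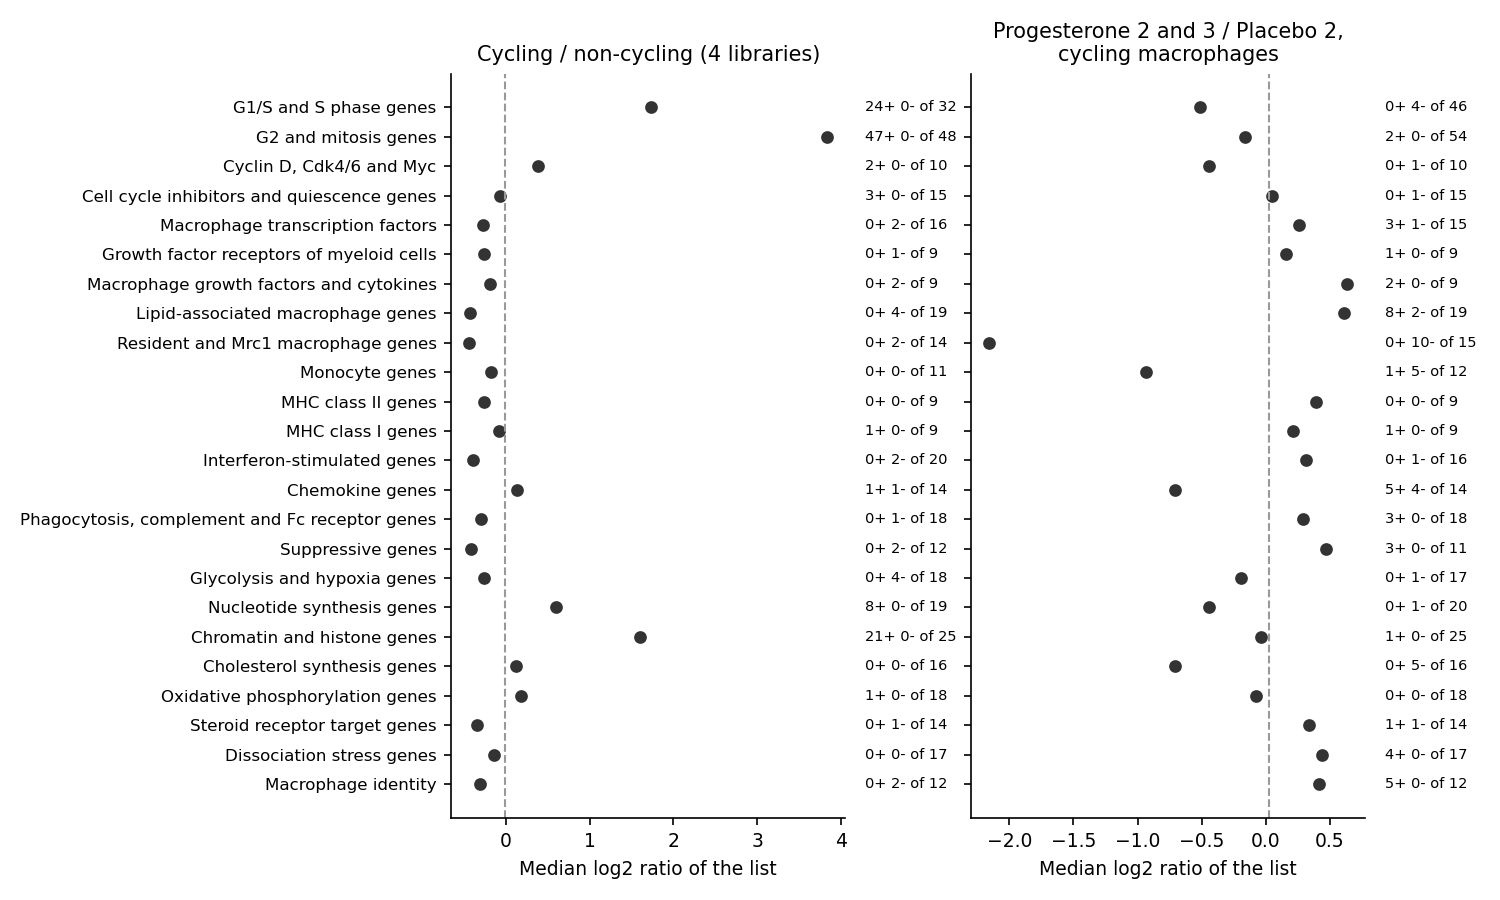
Median log2 difference of each gene list in cycling over non-cycling macrophages (left) and, among cycling macrophages, in Progesterone 2 and Progesterone 3 over Placebo 2 (right), with the median of all tested genes as a dashed line. Numbers give the genes higher (+) and lower (-) past an adjusted p of 0.05 of those tested. G2 and mitosis genes lie at 3.84 on the left, where the cycle lists follow the rule that chose the cells, and resident and Mrc1 genes at -2.16 on the right.

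Outside the lists, the largest rises with progesterone were Dach1, at 2.23, 54.4 and 43.8 CPM (log2 3.79 ± 0.47, adjusted p = 0.00164), Gdf3, a growth factor gene of the TGF-beta family, by 3.72, and Acod1, the itaconate-producing enzyme gene, by 3.32. Rasgrp3, Tnfsf8 and Stard13 followed, by 3.16, 2.99 and 2.61. Dach1, Gdf3, Rasgrp3 and Tnfsf8 each stood at 2.23 CPM, or 2 UMIs, in the 37 placebo cells, so their fitted sizes depend on the prior count. Among the falls, Cd226 was at 108, 4.47 and 5.26 CPM (log2 -4.00 ± 0.32, adjusted p = 0.000101). Serpinb10 was at 39.0, 0.406 and 0 CPM, with 60.0% of its placebo UMIs in 1 cell and 121 CPM in 1 cell of Progesterone 1.

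Epithelial transcripts moved with the same contrast. Krt17 was at 26.8, 0 and 0.876 CPM in cycling cells and at 17.7, 0.949 and 0.237 CPM in non-cycling cells, and Krt15 at 12.3, 35.8 and 45.5 CPM in cycling cells (log2 -3.76 and 1.67, adjusted p = 0.0127 and 0.0384). In cycling cells of Progesterone 1 Krt15 was at 6.52 CPM, below Placebo 2. In tumour barcodes Krt17 averaged 122 and Krt15 1411 CPM. Of the 473 genes called, 19 (4.02%) were over 10 times higher in tumour barcodes than in cycling macrophages. The part of free tumour transcripts in the other calls was not tested.

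The last comparison asked whether the progesterone difference itself differed between cycling and non-cycling macrophages. In edgeR's interaction test 1 of 10108 genes passed (0.00989%), Mucl1, at -6.26 ± 0.39 log2 (adjusted p = 0.000338). At an unadjusted p under 0.05 there were 379 genes, and DESeq2 called 4. Mucl1, a gene of mucin-like secretory protein, had 1205, 12 and 0 UMIs in cycling cells of Placebo 2, Progesterone 2 and Progesterone 3, and 1182, 623 and 3 in non-cycling cells. A single cell held 864 of the 1205 UMIs (71.7%), and another 610 of the 623. Mucl1 was not called with at least 12 UMIs. With depth-matched cells it was not among the 8254 genes tested, of which 0 passed (228 at an unadjusted p under 0.05). The count of 1 rose to 140 without Progesterone 1 and to 18 without Progesterone 2.

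Not every resident gene had the same order of libraries in non-cycling cells. In non-cycling cells of Placebo 2, Progesterone 2 and Progesterone 3, Retnla was at 4726, 727 and 609 CPM, Cd163 at 124, 6.51 and 7.34 CPM and Lyve1 at 116, 3.39 and 1.66 CPM, highest in Placebo 2 as in cycling cells. Ccl24 was at 68.6, 20.9 and 77.5 CPM, highest in Progesterone 3. Non-cycling cells were not tested on their own. Spp1 was at 1173, 5342 and 2304 CPM. In the interaction test none of these genes passed. Without Progesterone 1 it called 140 of 10925 genes, 97 higher (0.888%) and 43 lower (0.394%). Here higher and lower refer to the progesterone difference in cycling cells against that in non-cycling cells, not to levels. The calls included 5 of 15 resident and Mrc1 genes, lower, and 5 of 19 lipid-associated genes, higher. In a simulation with the same design, that test recovered 66 of 100 genes changed by 2 log2 units and 3 of 100 changed by 1. The simulated counts had the same dispersion for every gene and no library differences beyond depth. They therefore set no limit of detection for the measured libraries.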

How the data were processed

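The deposited matrices held counts, whole UMIs per gene and barcode, with no normalisation by the authors. Per the file headers they came from Cell Ranger 8.0.1, while Cell Ranger 7.0.0 and mm10 are named per the submitters' processing notes. The 24860 gene symbols held no mitochondrial genes, and 0 columns lacked a sample. Raw UMIs of cycling and of non-cycling macrophages were summed per library, for libraries with at least 10 cells of each. Sums were tested with edgeR 4.0.16 (R 4.3.3; filterByExpr, TMM, quasi-likelihood with robust dispersions, prior count 2) and Benjamini-Hochberg adjustment over all genes. The library was the block between states, and the batch between treatments. Same-numbered samples share a batch per the sample titles. Library totals were 23409215 to 204786073 UMIs.

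Cells were gated by the stated limits on raw UMIs. Doublets were called against simulated doublets (scanpy 1.11.5, Python 3.11.15) at 0.8% per 1000 barcodes and left out in an alternative. Promoter sequences and 7707 of 9703 tested genes' windows came from RefSeq tables on GRCm38. The members and the gene lists were chosen with earlier results of these data known. Named genes were up to 4 called genes per list with the largest change, or the 2 most abundant where none was called. They also included the 8 largest rises and falls outside the cycle lists that had a mean of at least 20 CPM, 1 sign in all libraries (for progesterone, in both progesterone libraries of batch 2) and at most 10 times that level in tumour barcodes, and a subset is printed. Simulated counts had changed genes above 20 CPM only, the same dispersion for every gene and no library differences beyond depth. On 9703 such genes the comparison of states recovered 93 of 100 genes changed by 1 log2 unit and 100 of 100 changed by 2. For progesterone it was 18 and 94 of 100 on 9078 genes, and for the difference 3 and 66 of 100 on 10118 genes. Alternatives were DESeq2 1.42.0, no TMM, no filter, other limits on Mki67 and Top2a, on C1q and on epithelial UMIs, cells thinned to 5000 UMIs, depth-matched cells, no doublets, no block and each library left out. Limits of 12 UMIs and of 3 UMIs after thinning, and both within batch 2, were added after seeing the data. Some named genes are not reported here.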

Additional observations from a re-analysis of the deposited data

Results flagged for a closer look

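Mucl1 was the only gene whose progesterone difference passed the interaction test between cycling and non-cycling macrophages, at -6.26 log2 (SE 0.39, edgeR's quasi-likelihood test, adjusted p = 0.000338). It was at 1343 CPM in cycling and 235 CPM in non-cycling macrophages of Placebo 2, and at 4.88 and 84.5 CPM in those of Progesterone 2. In the cycling cells of Placebo 2, 5 of 37 cells held all of its UMIs and 1 cell held 71.7% of them.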

How the results depend on the processing

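Genes called in cycling over non-cycling macrophages, 460 in all, were 756 with no filter on low counts, 1124 with at least 5 and 1231 with at least 12 Mki67 and Top2a UMIs, 157 with depth-matched cells and 271 with thinned cells. With 1 library left out they ranged from 167 (without Progesterone 3) to 831 (without Progesterone 1). With no scaling by TMM 84.1% of calls were higher, against 72.8%, and there were 433. Genes called with progesterone in cycling cells, 473 in all, were 64 by DESeq2, 751 without TMM (42.2% higher, against 52.2%), 922 with no filter, 873 with at least 5 UMIs, 1020 with epithelial UMIs under 0.15% and 123 after thinning. Of these, 43.5% were higher with at least 2 UMIs and 64.2% with at least 12. The interaction, 1 gene, gave 4 by DESeq2, 44 with no filter, 2, 32 and 164 with at least 2, 5 and 12 UMIs, 3 without doublets, 0 with depth-matched cells, and 3 to 140 with 1 library left out. Without the replicate block, here library or batch, 194 genes passed between states, 7 of them lower, and 1 gene with progesterone, Cd163 (log2 -4.83, adjusted p = 0.0099), where 701 had an unadjusted p under 0.05. Ifi27l2a then turned to 0.19 (adjusted p = 0.968). Fabp4 turned to 1.23 between states with at least 2 UMIs (adjusted p = 0.778).

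The difference in the share of cycling cells, 2.37 points, was 4.21 within batch 2, where the block leaves 3 libraries, -1.35 with at least 12 UMIs and -0.011 after thinning with at least 3 (0.0956 and 0.959 within batch 2). With 1 library left out it ranged from 1.29 to 4.21, and under the 6 other limits from 0.702 to 3.06. The cause of these changes was not tested. Leaving out Placebo 2 left no placebo library, and leaving out Progesterone 2 or 3 left the progesterone fit within cycling cells no residual degree of freedom, so neither was run.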
